A study of Mus musculus with 6 samples.

Results

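The genes described here are 9 members of the WNK kinase pathway and of cation-chloride cotransport, out of the 55341 genes for which reads were counted. They are the WNK kinases *Wnk1*, *Wnk2*, *Wnk3* and *Wnk4*, the effector kinases *Stk39* and *Oxsr1*, the cotransporters *Slc12a2* and *Slc12a4*, and *Klhl3*, the substrate adaptor of a ubiquitin ligase. The members were chosen by gene symbol, with the difference between miRNA-26b-/- and miRNA-26b+/+ aortas in these same 6 libraries already known. The study named *Wnk3* as the most upregulated of the predicted miRNA-26b targets altered in these libraries. It also measured *Wnk3* by real-time PCR and reported that this bore out the difference. The PCR values are not used here. The differences of the members between the groups are therefore given as a description, and no test is read from them.

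WNK kinases are serine/threonine kinases that respond to intracellular chloride and to cell volume. They phosphorylate the effector kinases SPAK, encoded by *Stk39*, and OSR1, encoded by *Oxsr1*, which in turn phosphorylate the cation-chloride cotransporters: the sodium-potassium-chloride cotransporter NKCC1, encoded by *Slc12a2*, is activated and carries chloride into the cell, whereas the potassium-chloride cotransporters, among them KCC1, encoded by *Slc12a4*, are inhibited and carry less chloride out. KLHL3 binds WNK kinases and, with cullin 3, has them ubiquitinated and degraded. The pathway is best known from the distal nephron, where it sets salt reabsorption and blood pressure, but in the vessel wall NKCC1 loads smooth muscle cells with chloride, and WNK1 and SPAK take part in contraction.

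RNA was sequenced from the aorta of 3 miRNA-26b-/- mice and 3 miRNA-26b+/+ mice, 1 library per mouse, and reads were counted per gene. All mice were 8 weeks old and ate chow. The miRNA-26b-/- mice lacked 160 bp with the miRNA-26b hairpin inside an intron of *Ctdsp1*: tamoxifen and a CreERT2 transgene had been used to delete the floxed allele, and the transgene was then removed by breeding. The label of all 6 mice is C57BL/6NCrl, while the targeted embryonic stem cells were of 129/Sv origin. The promoter of the CreERT2 transgene is not given in the sources used here. The miRNA-26b-/- libraries are M2626, M2627 and M2628 (replicates 1 to 3) and the miRNA-26b+/+ libraries are M2629, M2630 and M2631 (replicates 1 to 3). The labels number no replicates, so these numbers are names in accession order and pair no mice.

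Each library held between 25706728 and 33345037 counts, and 16017 genes passed the filter on low counts and were tested with edgeR's quasi-likelihood test. By the labels the cells are endothelial cells of the aorta, and by the study's methods the tissue is the arch and thoracic part of the aorta. The counts were those of a whole vessel wall: 7 smooth muscle markers summed to between 31339.6 and 42224 CPM (counts per 1000000, scaled for library size and composition), and 8 endothelial markers to between 428 and 1694. The endothelial sum was 428 in M2626 and 474 in M2627, against 1178 or more in the other 4 libraries, and M2627 held 301 CPM of 9 sympathetic neuron markers, against 61.1 or less elsewhere. The deleted hairpin itself received 20 counts in M2630 and none in the other 5 libraries, too few to check the genotypes.

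The sequences that bear on these genes are those of the miRNA that was deleted and the places in the members' transcripts that its seed could pair with. The mature miRNAs are shown as RefSeq gives them on GRCm38.p6, with the seed, bases 2 to 8 from the 5′ end, in capitals. The gene of miR-26b lies on chromosome 1, with miR-26b-5p at chr1:74394324-74394344 on the forward strand, and none of the 9 members lies on that chromosome.

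mmu-miR-26b-5p: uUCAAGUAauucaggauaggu
mmu-miR-26b-3p: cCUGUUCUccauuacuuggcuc
mmu-miR-26a-5p: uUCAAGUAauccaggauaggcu

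The first and the third of these share the seed UCAAGUA. miR-26a-5p is made from other genes, on chromosomes 9 and 10, that were not deleted.

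Sites for this seed were searched on the sense strand of the longest annotated 3′ UTR of each gene in the GENCODE M21 transcripts (GRCm38). An 8mer is TACTTGAA, a 7mer-m8 is TACTTGA and a 7mer-A1 is ACTTGAA, so that each 8mer also holds both kinds of 7mer and is counted once, as an 8mer. Of 21020 genes with a 3′ UTR, 4.19% held an 8mer and 18.3% held a 7mer or an 8mer. *Wnk1*, *Stk39* and *Slc12a2* held 1 8mer each, *Stk39* also 1 7mer-A1, and *Wnk3* held 2 7mer-m8 sites. *Wnk2*, *Wnk4*, *Oxsr1*, *Slc12a4* and *Klhl3* held no 7mer or 8mer in these windows. The windows with a site are shown in the sense of the transcript, with the site in capitals, since *Wnk1* was the most abundant WNK kinase and *Wnk3* the member whose groups did not overlap. The 8mer of *Slc12a2* is counted here without its letters.

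*Wnk1* 8mer, chr6:119925525-119925550, reverse strand: taaattactgTACTTGAAtacttctg
*Wnk3* 7mer-m8, chrX:151315352-151315377, forward strand: tcctctttgaTACTTGAtttttaaaa
*Wnk3* 7mer-m8, chrX:151316031-151316056, forward strand: aagtgaaatgTACTTGAcacactagg
*Stk39* 7mer-A1, chr2:68211396-68211421, reverse strand: ttattagccaaACTTGAAttctagtt
*Stk39* 8mer, chr2:68210881-68210906, reverse strand: atccaagtttTACTTGAAaagctcgg

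The 3′ UTR of *Wnk3* was 3181 bases long, and 38.3% of the 2167 other genes whose 3′ UTR was within 20% of that length held at least 1 7mer or 8mer. For *Wnk1* (2401 bases) an 8mer was held by 6.82% of genes of like length, for *Stk39* (1474 bases) by 3.96%, and for *Slc12a2* (2770 bases) by 7.66%. A match to the seed is a stretch of letters and no measurement of pairing.

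Expressed as CPM per kilobase of gene length (RPKM, with the exonic length in the deposited table), the members spanned a wide range of levels, from *Slc12a4* at 28.5 ± 2.35 (SD, n = 6) to *Wnk3* at 0.061 ± 0.077. Next to *Slc12a4* came *Wnk1* at 17.7 ± 2.19 RPKM and *Oxsr1* at 15.2 ± 2.22, then *Stk39* at 7.99 ± 2.07 and *Slc12a2* at 3.11 ± 0.514. *Wnk4* (0.966 ± 0.675), *Klhl3* (0.368 ± 0.160) and *Wnk2* (0.294 ± 0.254) stood far lower. *Slc12a4* was more abundant than 89.4% of the tested genes, *Wnk1* than 82.9%, *Slc12a2* than 40.9% and *Wnk2* than 5.31%, while 15995 of the 16017 tested genes stood above *Wnk3*.

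Each of the 6 libraries put *Slc12a4* above *Wnk1*, *Oxsr1* above *Stk39*, *Stk39* above *Slc12a2* and *Slc12a2* above *Wnk4*, and the ranges of these neighbours over the libraries did not overlap. *Wnk4* was also above *Klhl3* in all 6 libraries, although their ranges overlapped. The ranges overlapped as well for *Wnk1* and *Oxsr1*, for *Klhl3* and *Wnk2*, and for *Wnk2* and *Wnk3*, with the first of each pair higher in 5, 4 and 5 of the 6 libraries, and these neighbours were not set apart beyond their spread. With the length of the longest annotated transcript in place of the exonic length, *Wnk1* came first (35.6 RPKM) and *Slc12a4* second (32.0), and the other 7 kept their places. The exonic length of *Wnk1*, 22825 bases, sums exons of several isoforms and is longer than its longest transcript, 11330 bases.

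**Figure D1:**
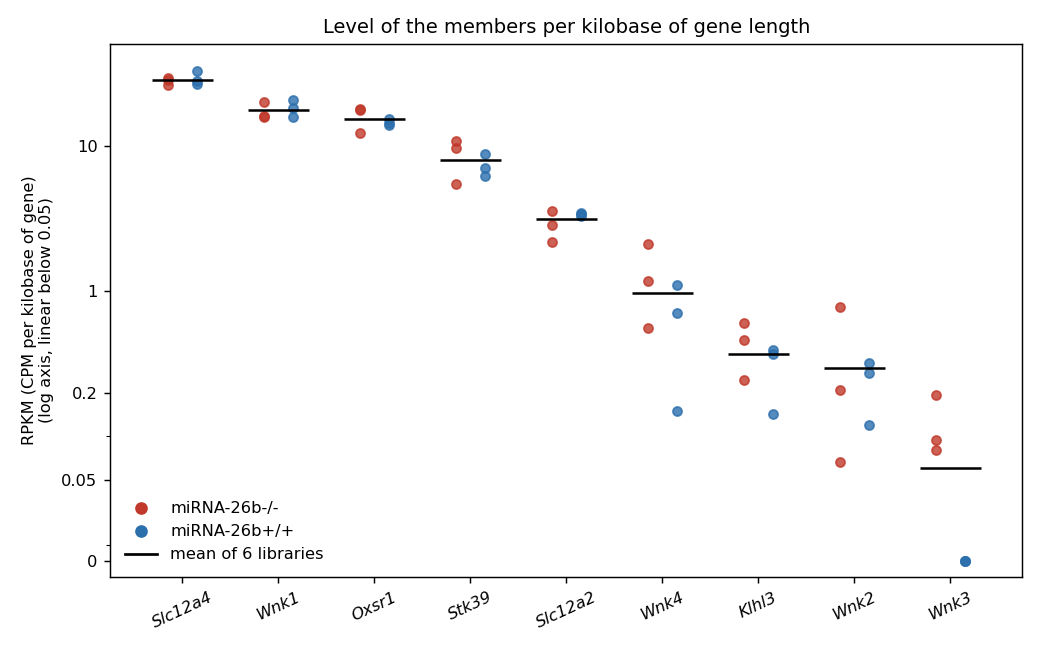
Level of each member in RPKM, on a log axis that is linear below 0.05, with a point for each library (red, miRNA-26b-/-; blue, miRNA-26b+/+) and a line at the mean of the 6 libraries. *Slc12a4*, *Wnk1* and *Oxsr1* lay between 12.2 and 32.7, *Stk39* and *Slc12a2* lay in the middle, and *Wnk3* was the lowest, at 0 in all 3 miRNA-26b+/+ libraries.

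*Wnk1* therefore made up most of the WNK kinase RNA of the aorta. It held 95.0%, 88.0% and 89.7% of the summed RPKM of the 4 WNK kinases in M2626, M2627 and M2628, and 97.1%, 93.7% and 95.5% in M2629, M2630 and M2631. The ranges of the groups overlapped.

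*Wnk1*, the WNK kinase found in most tissues, had 363, 361 and 454 CPM in the miRNA-26b-/- libraries and 357, 415 and 468 CPM in the miRNA-26b+/+ libraries. M2628 and M2631 were the highest of their groups and the groups overlapped throughout. The means were 393 ± 53.1 CPM (SD, n = 3) and 413 ± 55.9, and the fitted log2 fold change was -0.07 ± 0.15 (SE). The sign of this small difference depended on M2631, without which it was 0.02. In bulk tissue, fewer cells of a type and less RNA per cell cannot be told apart, here or for any gene below.

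*Wnk2*, a WNK kinase known mainly from brain and heart, had 45, 221 and 16 counts in M2626, M2627 and M2628 (1.76, 6.59 and 0.567 CPM) and 83, 28 and 70 counts in M2629, M2630 and M2631 (2.71, 1.02 and 2.32 CPM). The highest and the lowest values both belonged to the miRNA-26b-/- group. The mean was 2.97 ± 3.19 CPM in miRNA-26b-/- and 2.02 ± 0.884 in miRNA-26b+/+, with a log2 fold change of 0.65 ± 0.84. Without M2627 the fold change was -0.85, so that library alone decided which group was higher.

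*Wnk3*, a WNK kinase known to act on cotransporters in kidney and in neurons, received 22, 68 and 28 counts in M2626, M2627 and M2628 and 0 counts in each of the 3 miRNA-26b+/+ libraries. In CPM these were 0.860, 2.03 and 0.993 against 0. It was the 1 member of 9 whose groups did not overlap. Of all genes tested, the groups did not overlap in 11.5%.

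Set against a floor of 3 counts per library, or 0.102 CPM at the average depth, the level of *Wnk3* in miRNA-26b-/- aortas (1.29 ± 0.639 CPM) was at least 12.6-fold higher, and at least 9.05-fold higher without M2627. That floor allows for counting error alone, since the reads carry no molecular identifiers and several can stem from 1 molecule. The fitted log2 fold change of a gene at 0 in a whole group depends on the prior count added to it and is not given as a size. *Wnk3* passed the filter on low counts through the miRNA-26b-/- group alone, by its counts in M2627 and M2628, the latter just over 1 CPM of the library's total. With either of them left out it did not pass and had no value in the fit.

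Genes with few counts were at 0 in a whole group in either direction. *Wnk3* was 1 of 5 tested genes with 0 counts in every miRNA-26b+/+ library and 22 or more in every miRNA-26b-/- library, and 14 tested genes had 0 counts in every miRNA-26b-/- library and 22 or more in every miRNA-26b+/+ library. With 1 count or more in every library on the other side, 18 genes showed the first pattern and 28 the second.

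*Wnk3* shares 523 exonic bases with *A230072E10Rik*, a gene on the opposite strand, and a read was counted for every gene it touched on either strand. Counts for *A230072E10Rik* were 64, 89 and 130 in M2626, M2627 and M2628 and 54, 102 and 105 in M2629, M2630 and M2631. Its groups overlapped, and in the miRNA-26b+/+ libraries none of its counts came with a count for *Wnk3*. How many of the *Wnk3* counts lay in the shared bases was not tested.

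*Wnk4*, the WNK kinase best known from the distal nephron, had 59, 164 and 247 counts in M2626, M2627 and M2628 (2.31, 4.89 and 8.76 CPM) and 19, 125 and 88 counts in M2629, M2630 and M2631 (0.620, 4.55 and 2.91 CPM). The highest library was M2628 and the lowest M2629, and M2626 lay below M2630 and M2631. The mean was 5.32 ± 3.25 CPM in miRNA-26b-/- and 2.70 ± 1.98 in miRNA-26b+/+, a log2 fold change of 1.03 ± 0.71. It shares 306 bases with the antisense gene *Gm11615*, which had at most 4 counts in any library. Of 6 markers of the distal nephron, *Slc12a1*, *Slc12a3*, *Umod*, *Calb1* and *Kcnj1* were at 0 in all libraries, and the other one, *Pvalb*, also a muscle gene, had 43 counts in M2626, 217 in M2627 and 0 elsewhere.

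Per length, both effector kinases were more abundant than any WNK kinase but *Wnk1*. *Stk39*, which encodes SPAK, had 53.1, 48.0 and 27.2 CPM in the miRNA-26b-/- libraries and 34.9, 30.7 and 43.6 CPM in the miRNA-26b+/+ libraries. M2626 and M2627 were above all 3 miRNA-26b+/+ libraries and M2628 was below them. The means were 42.7 ± 13.7 and 36.4 ± 6.60 CPM, and the log2 fold change was 0.23 ± 0.26.

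*Oxsr1*, which encodes OSR1, had 96.0, 65.5 and 94.0 CPM in the miRNA-26b-/- libraries and 81.1, 73.7 and 77.1 CPM in the miRNA-26b+/+ libraries. Here M2627 was the lowest of the 6 libraries and M2626 and M2628 the highest. The means were 85.2 ± 17.1 and 77.3 ± 3.68 CPM, with a log2 fold change of 0.13 ± 0.19. The ratio of *Stk39* to *Oxsr1* per length was 0.597, 0.791 and 0.312 in M2626, M2627 and M2628 and 0.464, 0.450 and 0.611 in M2629, M2630 and M2631, so that SPAK RNA was below OSR1 RNA in every mouse and the miRNA-26b-/- libraries held both the highest and the lowest ratio.

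*Slc12a2*, the chloride-loading NKCC1, had 23.8, 31.3 and 38.7 CPM in the miRNA-26b-/- libraries and 36.0, 37.5 and 36.7 CPM in the miRNA-26b+/+ libraries. M2626 and M2627 were below all miRNA-26b+/+ libraries and M2628 was above them. The means were 31.2 ± 7.46 and 36.7 ± 0.714 CPM, with a log2 fold change of -0.23 ± 0.23. M2626 and M2627 were also the libraries with the low endothelial sum, 428 and 474 CPM, whereas it was 1694 in M2628. The endothelial marker *Kdr* went the other way. The part of endothelial cells in the level of *Slc12a2* was not tested.

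*Slc12a4*, the chloride-exporting KCC1, had 112, 124 and 121 CPM in the miRNA-26b-/- libraries and 114, 120 and 140 CPM in the miRNA-26b+/+ libraries. It varied little between mice, with a coefficient of variation of 5.32% and 11.1%, and the groups overlapped. The log2 fold change was -0.06 ± 0.16, and without M2631 it was 0.02. It shares 361 bases with the antisense gene *Gm16156*, which had between 282 and 517 counts against 2863 to 4230 for *Slc12a4*. The RNA of the chloride importer was below that of the exporter, by a share that depends on the length used. Per exonic length, *Slc12a2* came to 8.32%, 9.90% and 12.5% of *Slc12a4* in M2626, M2627 and M2628. It came to 12.4%, 12.2% and 10.3% in M2629, M2630 and M2631, and these ranges overlapped. With the longest transcript's length the means of *Slc12a2* and *Slc12a4* were 5.21 and 32.0 RPKM, and without length 34.0 and 122 CPM.

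*Klhl3*, the adaptor that brings WNK kinases to the ligase, had 46, 147 and 95 counts in M2626, M2627 and M2628 (1.80, 4.38 and 3.37 CPM) and 32, 79 and 82 in M2629, M2630 and M2631 (1.04, 2.88 and 2.71 CPM). M2627 was the highest and M2629 the lowest, and M2626 lay below M2630 and M2631. The means were 3.18 ± 1.30 and 2.21 ± 1.01 CPM, with a log2 fold change of 0.59 ± 0.72. M2629, which held the least *Klhl3*, also held the least *Wnk4*, and *Wnk4* per *Klhl3*, per length, lay between 1.05 and 4.59 over the 6 libraries.

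**Figure D2:**
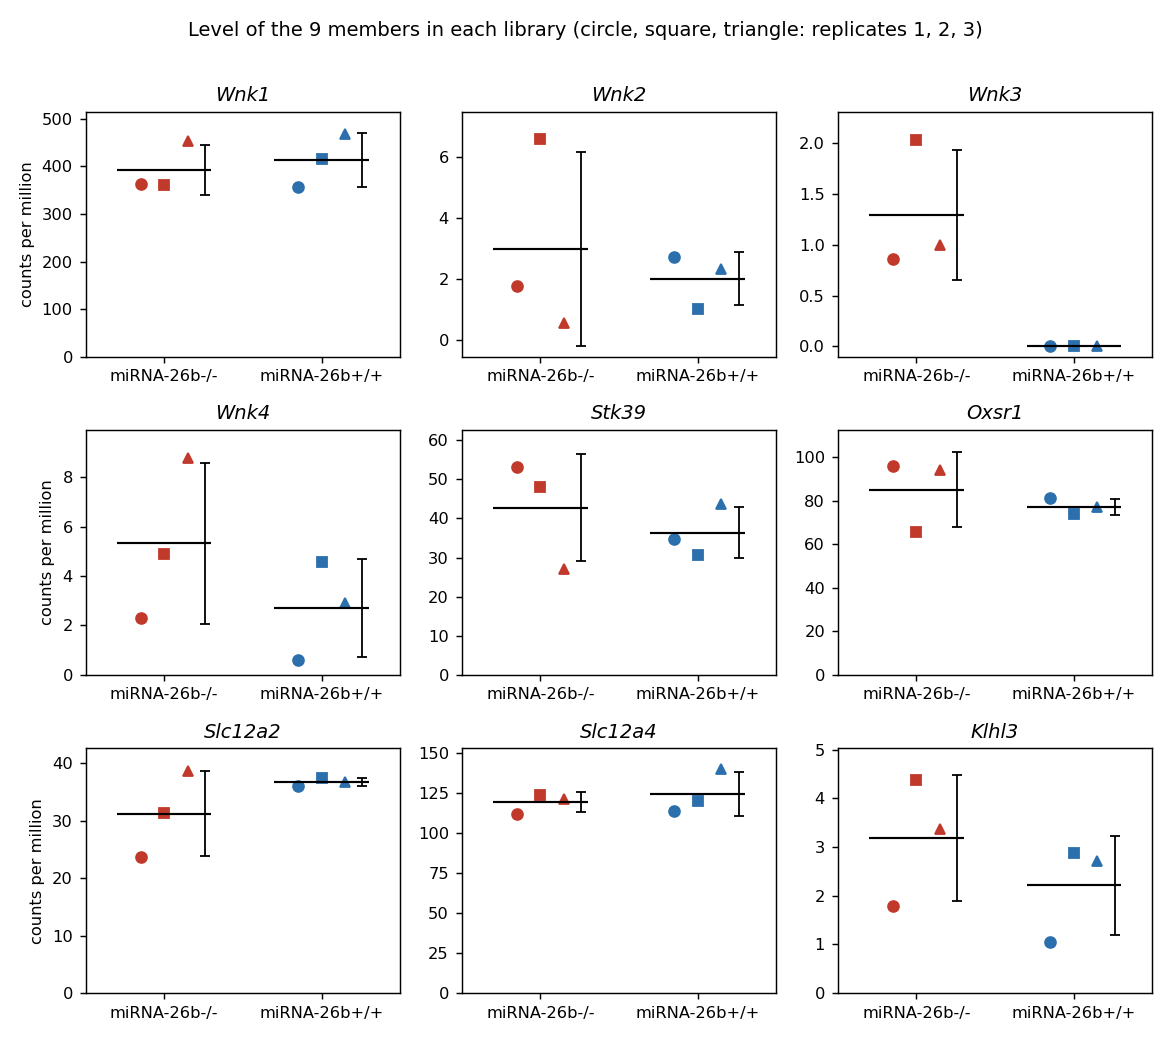
Level in CPM of each member in each library, with the mean (line) and SD (bar) of the 3 miRNA-26b-/- libraries (red) and the 3 miRNA-26b+/+ libraries (blue); each panel has its own scale, and circle, square and triangle are replicates 1, 2 and 3. The groups overlap in 8 panels, and in the panel of *Wnk3* the 3 miRNA-26b-/- libraries lie between 0.860 and 2.03 and the 3 miRNA-26b+/+ libraries at 0.

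All 9 members passed the filter on low counts. At an unadjusted p-value under 0.05 in edgeR's quasi-likelihood test, 1 of them was called, *Wnk3*, against 6.47% of all genes tested in either direction and 3.4% in the direction of a higher level in miRNA-26b-/-. With M2627 or with M2628 left out, 0 of the 8 members still tested were called. After Benjamini-Hochberg adjustment over all 16017 genes 0 of the 9 members passed, with adjusted p-values between 0.736 and 0.977, and 0.00624% of all genes did. The fitted fold change was above 0 for 6 members and below 0 for *Wnk1*, *Slc12a2* and *Slc12a4*, with a median of 0.23 on the log2 scale beside 0.01 over all genes tested. As the rule that chose the members had this contrast in view, nothing is read from these counts.

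Beyond the members, 33 other genes that act in the pathway or beside it were read from the same table: 7 other cotransporters of the SLC12 family, 7 genes of the ligase, its scaffolds and upstream regulators, 6 subunits of the sodium pump, 5 subunits of the volume-regulated anion channel and 8 anion and proton exchangers and their scaffolds. *Slc12a1*, *Slc12a3* and *Lrrc8e* were at 0 in all 6 libraries, and the other 30 were tested. No pathway gene passed after adjustment, with adjusted p-values of 0.736 or more. At an unadjusted p-value under 0.05, 1 was higher and 3 were lower in miRNA-26b-/-, and over all genes tested 3.4% were higher and 3.07% were lower. The 1 higher gene, *Slc12a5*, had passed the filter on low counts through the miRNA-26b-/- group alone. The groups did not overlap in 7 of the 30 and in 11.5% of all genes tested. The median log2 fold change of the 30 genes was -0.02.

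*Slc12a7*, which encodes the potassium-chloride cotransporter KCC4, had 37.8, 43.7 and 44.4 CPM in the miRNA-26b-/- libraries and 64.4, 66.2 and 57.6 CPM in the miRNA-26b+/+ libraries. All 3 miRNA-26b-/- libraries lay below all 3 miRNA-26b+/+ libraries. The means were 42.0 ± 3.65 and 62.7 ± 4.57 CPM, and the log2 fold change was -0.57 ± 0.19 (edgeR quasi-likelihood test, unadjusted p = 0.00825, adjusted p = 0.736). Its unadjusted p stayed under 0.05 with each library left out in turn, at 0.0326 or less, and in all other alternatives.

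*Slc12a5*, the neuronal cotransporter KCC2, differed the other way at a low level, with 1.52, 2.59 and 3.55 CPM in the miRNA-26b-/- libraries and 0.033, 0.437 and 0.960 CPM in the miRNA-26b+/+ libraries. The groups did not overlap, and the highest library was M2628, in which the sympathetic neuron markers summed to 17.1 CPM. The part of neurons in the level of *Slc12a5* was not tested. *Slc12a5* passed the filter on low counts through the miRNA-26b-/- group alone, since no miRNA-26b+/+ library exceeded 1 CPM of its total. Its lack of overlap and its p-values are therefore given as a description, and no test is read from them. The log2 fold change was 2.43 ± 1.03 (edgeR, unadjusted p = 0.0285, adjusted p = 0.736). The unadjusted p was over 0.05 with M2628, M2629 or M2630 left out, at 0.0689, 0.0988 and 0.0750, with DESeq2 (0.0609), with limma voom (0.0927) and with the earlier method of edgeR (0.157).

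Of the ligase, scaffold and upstream genes, 0 of 7 were called, 3 with a fold change above 0 and 4 below. The most abundant per length was *Cab39*, which encodes MO25, the scaffold that raises the activity of SPAK and OSR1, at 27.5 RPKM. It had 194, 196 and 193 CPM in the miRNA-26b-/- libraries and 205, 172 and 207 CPM in the miRNA-26b+/+ libraries, a log2 fold change of -0.01 ± 0.14. *Cul3*, the cullin that works with *Klhl3*, had a log2 fold change of -0.17 ± 0.18. The fold changes of the 7 genes ran from -0.27 for *Klhl2*, the close relative of *Klhl3*, to 0.32 for *Sgk1*, a kinase that acts on ion transport downstream of mineralocorticoids.

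Of the sodium pump, the RNA of the beta subunit *Atp1b2*, which helps to bring the pump to the membrane, had a log2 fold change of 0.12 ± 0.16, and that of the beta subunit *Atp1b1* one of 0.63 ± 0.37. *Atp1b1* had 12.5, 44.6 and 26.3 CPM in M2626, M2627 and M2628 and a mean of 18.5 ± 1.54 CPM (SD, n = 3) in miRNA-26b+/+. The miRNA-26b-/- group held both the highest and the lowest of these values, and neither subunit was called.

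None of the 4 tested subunits of the volume-regulated anion channel was called. *Lrrc8a*, the subunit the channel cannot do without, was the most abundant per length, at 24.6 RPKM, and had a log2 fold change of -0.10 ± 0.19. Of the 8 exchangers and scaffolds, the 1 called was *Slc9a3r2*, which encodes the scaffold NHERF2 and was the most abundant of them per length, at 21.1 RPKM. It had 41.7, 40.7 and 54.7 CPM in the miRNA-26b-/- libraries and 64.9, 76.3 and 56.8 CPM in the miRNA-26b+/+ libraries.

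The groups of *Slc9a3r2* did not overlap, and its lowest values were in M2626 and M2627, the libraries with the low endothelial sum, whose part in the difference was not tested. The log2 fold change was -0.53 ± 0.20 (edgeR, unadjusted p = 0.0201, adjusted p = 0.736). With M2626, M2627 or M2630 left out the unadjusted p was 0.0581, 0.0780 and 0.100.

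**Figure D3:**
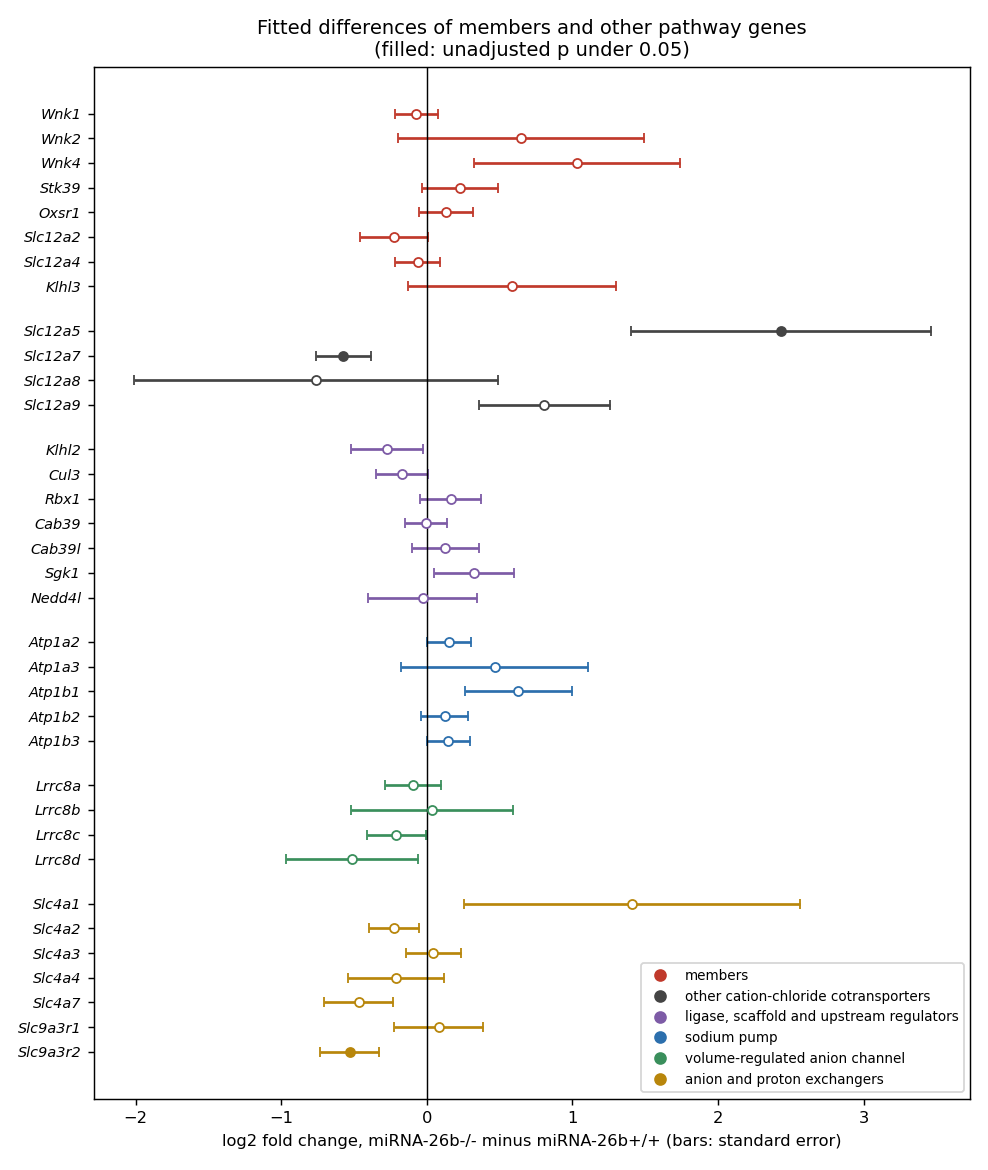
Fitted log2 fold change, miRNA-26b-/- minus miRNA-26b+/+, with its standard error, of 8 members and 27 of the tested pathway genes by list; filled points had an unadjusted p-value under 0.05, and none passed after adjustment. *Wnk3* is left out, since its fitted fold change depends on the prior count. The members scatter on both sides of 0, from -0.23 for *Slc12a2* to 1.03 for *Wnk4*, with the widest bars for the genes with few counts.

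The markers of other cell types also differed between the libraries. Of the 9 sympathetic neuron markers, all 9 were highest in M2627, the library in which *Wnk2*, *Wnk3* and *Klhl3* were also highest, and their sum was 12.4, 301 and 17.1 CPM in the miRNA-26b-/- libraries and 19.1, 61.1 and 30.5 CPM in the miRNA-26b+/+ libraries. In M2626 and in M2628, 5 of the 9 markers were at 0, the defining *Th* and *Dbh* among them, and the other 4 were counted: *Stmn2* (181 and 181), *Hand2* (103 and 229), *Tubb3* (14 and 44) and *Snap25* (19 and 28). In M2630, where *Wnk3* was at 0, *Th* and *Dbh* had 98 and 413 counts, *Tubb3* 245 and *Snap25* 69. In M2629 and M2631, 7 and 6 of the 9 markers were at 0, *Tubb3* and *Snap25* among them, as *Wnk3* was. The others there were *Stmn2* (281 and 664 counts), *Hand2* (305 and 227) and *Npy* (0 and 31). The part of these cells in the levels of *Wnk2*, *Wnk3* and *Klhl3* was not tested.

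The 9 Schwann cell markers summed to 515, 498 and 369 CPM in the miRNA-26b-/- libraries and 249 to 312 CPM in the miRNA-26b+/+ libraries, with no overlap. The 7 skeletal muscle markers summed to 8.40 to 92.4 CPM in the miRNA-26b-/- libraries, highest in M2627, and 2.18 to 11.2 CPM in the miRNA-26b+/+ libraries. Of these 7, 0, 0 and 4 were at 0 in M2626, M2627 and M2628, and 5, 5 and 4 in M2629, M2630 and M2631. *Mylpf* had 91, 113 and 174 counts in M2626, M2627 and M2628 and, like *Wnk3*, 0 in the others. In M2628, *Myh1*, *Myh4*, *Ckm* and *Pvalb* were at 0, and *Ckm* had 99 and 290 counts in M2629 and M2630. The part of Schwann and muscle cells in the level of *Wnk3* was not tested either. The 6 cardiac muscle markers were highest in M2627 and M2630, at 329 and 282 CPM, and the 7 fibroblast markers in M2628, at 14793 CPM against 10043 or less. The 7 adipocyte markers also summed highest in M2627, at 1870 CPM against 1334 or less. The smooth muscle, endothelial, Schwann cell and leukocyte sums were highest in other libraries. The part of adipocytes in the levels of *Wnk2*, *Wnk3* and *Klhl3* was not tested.

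**Figure D4:**
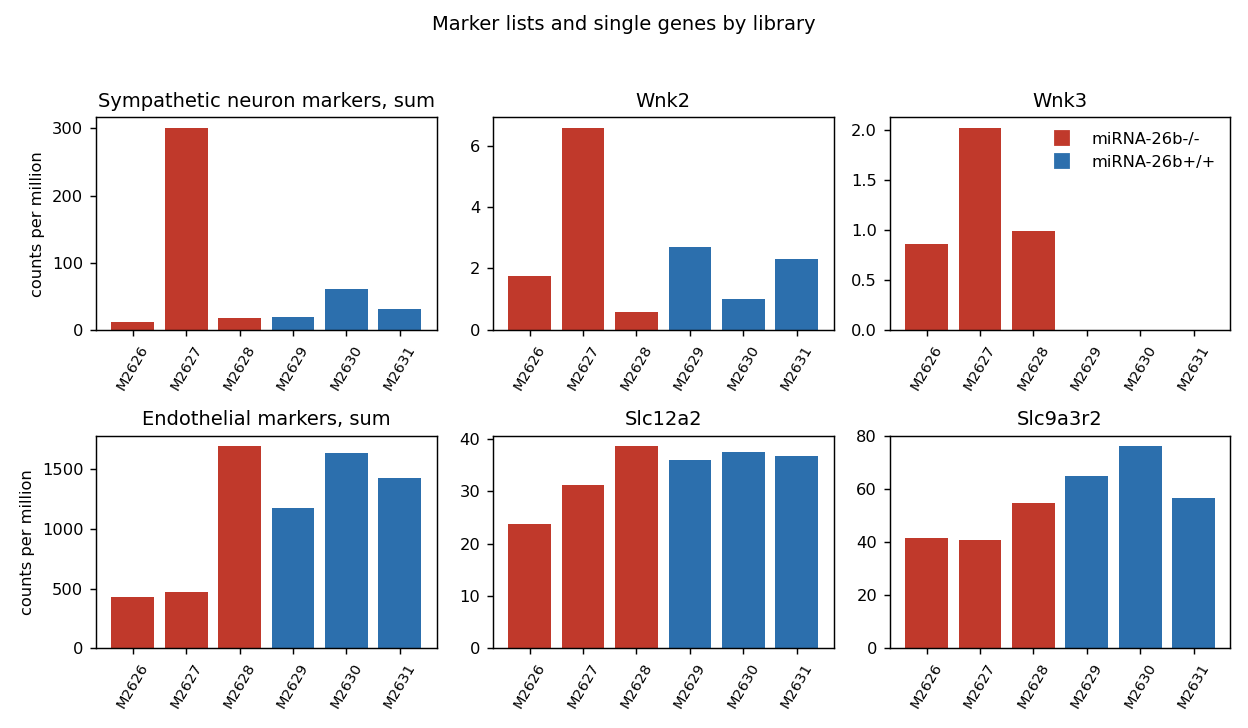
Level in CPM by library (red, miRNA-26b-/-; blue, miRNA-26b+/+) of the summed sympathetic neuron markers, *Wnk2* and *Wnk3* (top) and of the summed endothelial markers, *Slc12a2* and *Slc9a3r2* (bottom), each on its own scale from 0. M2627 has the highest bar in all 3 top panels, and M2626 and M2627 the lowest in the 3 lower panels.

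The genes whose pattern over the 6 libraries was nearest to that of a member were found by the root mean square difference of log2 CPM, each gene centred on its own mean, over 16016 other tested genes. Nearest to *Wnk1* were *Zfp281*, *Fbxw11* and *Plxnb2*, with differences of 0.03, 0.03 and 0.04 on the log2 scale. *Wnk1* itself varied by 0.16 on this measure, and 1829 genes lay within 0.2 of it. Nearest to *Slc12a2* were *Tgfbr2*, *Ankfy1* and *Rpp40*, with differences of 0.04, 0.05 and 0.05, and 901 genes lay within 0.2.

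Nearest to *Wnk3* were *A330035P11Rik*, *Slc13a3* and *Apol11b*, with larger differences of 0.32, 0.32 and 0.41. *Slc13a3* had 16, 101 and 39 counts in M2626, M2627 and M2628, *Apol11b* had 31, 48 and 15, and both had 0 in the 3 miRNA-26b+/+ libraries. For *A330035P11Rik* the counts were 29, 94 and 55 in M2626, M2627 and M2628 and 1, 0 and 0 in M2629, M2630 and M2631. These are genes with few counts, as *Wnk3* is, and no gene lay within 0.2 of it.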

How the data were processed

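The authors aligned RNA-seq reads with STAR to GRCm38 (mm10 in the submitters' processing notes) and deposited read counts per gene, made with featureCounts 1.6.4 on GENCODE M21 with strand ignored and each read counted for every gene it overlaps. The counts are used as deposited. A second table, with the authors' normalized values, fold changes and p-values, was not used. The members and lists were chosen with earlier results of these data known.

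A gene was kept if its counts summed to 2 or more and it exceeded 1 CPM in 2 or more libraries. Counts were normalized by TMM and tested with edgeR 4.0.16 (R 4.3.3, quasi-likelihood test, two-sided), comparing 3 miRNA-26b-/- with 3 miRNA-26b+/+ libraries, with Benjamini-Hochberg adjustment over all genes tested. With 3 mice against 3, an exact permutation test of 1 gene cannot give a p under 0.1. Nothing in the labels says more of how the mice were related, so p-values measure the spread between these samples. RPKM were computed from CPM and the deposited gene length. The procedure was tested on simulated counts, with large changes set only in genes of higher counts. That simulation covers neither a gene with as few counts as *Wnk3* nor changes as small as those of most members.

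Named are the 9 members, the pathway genes with an unadjusted p under 0.05, the most abundant per length in each list, and the 3 genes nearest to *Wnk1*, *Wnk3* and *Slc12a2*; genes at 0, *Cul3*, *Klhl2*, *Sgk1*, *Atp1b1*, *Atp1b2*, markers and antisense genes were named after their values were seen, and the values of some pathway genes are not reported here. Alternatives were the scaling, DESeq2 1.42.0, limma 3.58.1 voom, the filter, a prior count of 2, the gene length, each library left out and, chosen after seeing the data, the earlier quasi-likelihood method of edgeR. The 3′ UTR of a gene is the longest after a stop codon in its annotated coding transcripts.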

Additional observations from a re-analysis of the deposited data

How the results depend on the processing

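With 3 libraries per group, genes of few counts (*Wnk2*, *Wnk3*, *Wnk4*, *Klhl3*) are the least precise. Over all genes tested there were 1036 calls at an unadjusted p-value under 0.05, and between 686 (without M2631) and 1692 (without M2628) with 1 library left out. The members called were 1, and between 0 and 1 with 1 library left out, the value of 0 coming without M2627 and without M2628, where *Wnk3* did not pass the filter. The pathway genes called were 4, and between 2 (without M2630) and 4 with 1 library left out. With the other scalings, tests and filters, these unadjusted counts stayed within 1.5 times. The order of the members by level had 7 of 9 in place with the longest transcript's length, and 7 with no length, *Wnk1* and *Slc12a4* trading places. Of 124 fold changes of members under an alternative, 3 had another sign, *Wnk1* and *Slc12a4* without M2631 and *Wnk2* without M2627, and 4 moved by more than the spread between replicates, that of *Wnk2* without M2627 and that of *Wnk3* with DESeq2, limma voom and a prior count of 2. After adjustment, 0 members and 0 pathway genes passed under any alternative that was run. The count of all genes passing after adjustment was less stable. It was 1 in the main fit, 57 with DESeq2, 3 with limma voom, 0 with the earlier method of edgeR, and between 0 and 82 (without M2628) with 1 library left out. No paired analysis was possible because the labels carry no replicate numbers: replicates 1 to 3 of each group are only names, given in accession order, and pair no mice.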
